A study of Mus musculus with 6 samples.

Results

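The ribosomal protein genes are described here in native cardiac fibroblasts (CFs) of WT and CharmeKO mice. Members were the rows of the count table with a mouse symbol of the form Rpl or Rps followed by a number and, optionally, the letter a or x, together with Rplp0, Rplp1, Rplp2 and Rpsa. Rpl29 and Rpl3 were left out by the rule. This gave 74 genes of the 49548 in the table, 44 of the large and 30 of the small subunit. The rule reads no measured value, but it was set with earlier results of these data known. Rpl29 and Rpl3 were both lower in CharmeKO without overlap between the groups, so counts of lower members do not include them. Both groups were C57BL/6J mice aged 5 weeks, with 3 libraries each, and CharmeKO animals carried a polyadenylation signal inserted in the locus of Charme, a long non-coding RNA of muscle and heart. The mRNA was poly(A)-selected and sequenced in directional libraries from cells obtained by enzymatic dissociation of hearts and depletion of hematopoietic lineages, whereas the sample labels list a growth medium as well. The lineage depletion was the single enrichment step, so other cell types of the heart could remain in both groups. Each library was labelled as a replicate, without naming the animals behind it, and p-values measure the spread between these libraries.

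Ribosomal proteins join the ribosomal RNAs in a small subunit, which reads the mRNA, and a large subunit, which forms the peptide bond and holds the exit tunnel of the new chain. Their genes are among the most highly transcribed of any dividing or secretory cell, and most of their mRNAs begin with a pyrimidine tract, the 5′ TOP element, through which mTOR signalling sets their translation. Fibroblasts, which secrete the collagen matrix of the heart, depend on this machinery.

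The sequences around the annotated start were taken from the RefSeq promoter table (GRCm38.p6), in which 56 of the 74 members were found, with 66 entries. The 18 members without an entry included Rpl17, Rpl21, Rpl23a, Rpl30, Rpl32, Rpl36, Rpl7, Rpl8, Rplp1, Rps14, Rps20, Rps27a and Rps29. A run of C and T of at least 8 bases that reached into the 10 bases on either side of the start was present in 28 of the 66 entries (42.4%), against 13.7% of all 32851 entries. Runs of at least 10 bases were present in 22 entries (33.3%), against 6.97% of all entries. Of the short motifs searched on the strand of the gene within 20 bases of the start, some of which can overlap each other, CTTTCC was present in 15.2% of member entries and 1.95% of all. TTCCTT was present in 9.09% against 1.74%, and CTTTTC in 7.58% against 1.43%. The 27 members with a run of at least 8 bases in an entry had a log2 fold change between CharmeKO and WT of 0.22 in the median, and for the 29 matched members without one the median was 0.21.

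The following windows hold the 15 bases before and the 15 bases from the start, 5′ to 3′ on the strand of the gene, with the longest run of C and T in capitals. They are shown because they place members with fold changes near 0 (Rpl7a, Rpl15, Rplp2), of intermediate size (Rps6) and among the larger ones (Rps27, Rpl38) side by side, with the member of the highest fold change, Rpl26, whose window holds no long run.
Rpl7a: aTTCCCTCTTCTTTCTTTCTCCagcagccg
Rpl15: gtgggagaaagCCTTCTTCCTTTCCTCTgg
Rplp2: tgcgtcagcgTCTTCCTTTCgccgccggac
Rps6: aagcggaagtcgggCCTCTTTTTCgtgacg
Rps27: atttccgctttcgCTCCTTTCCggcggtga
Rpl38: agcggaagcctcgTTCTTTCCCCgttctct
Rpl26: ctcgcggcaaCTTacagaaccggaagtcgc

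On GRCm38.p6 these windows lie at chr2:26910792-26910821 on the plus strand for Rpl7a, chr14:18270972-18271001 on the minus strand for Rpl15 and chr7:141447636-141447665 on the plus strand for Rplp2. Those of Rps6 and Rps27 lie on the minus strand at chr4:86857353-86857382 and chr3:90213634-90213663, and those of Rpl38 and Rpl26 on the plus strand at chr11:114668565-114668594 and chr11:68901551-68901580. The runs of Rpl7a and Rpl15, of 21 and 17 bases, were longer than those of Rpl38 and Rps6, of 10 bases each, and of Rps27, of 9 bases. Members not shown with runs longer than that of Rpl15 were Rpl27a and Rpl34, of 20 bases each, and Rpl35, of 18 bases. Their log2 fold changes were 0.22, 0.38 and 0.36.

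The libraries held between 9595701 and 42101393 counts, the lowest being WT replicate 3. The counts of Charme were 26, 15 and 4 in WT and 7, 0 and 0 in CharmeKO, and libraries at 0 may hold up to 3 counts. Levels are given as CPM, counts scaled to the library total and the TMM factors of edgeR, and 3 counts correspond to 0.0705 to 0.323 CPM, a limit that covers counting error only. The fibroblast markers were present in all libraries, with Dcn between 2997 and 4045 CPM and Pdgfra between 362 and 464 CPM. Xist had 16783 counts in WT replicate 1, 13553 in CharmeKO replicate 1 and 9196 in CharmeKO replicate 2, and at most 67 in the others, so libraries rich and poor in Xist occurred in both groups. CharmeKO replicate 1 also held 59 counts of the Y-linked Ddx3y. All 74 members reached 10 counts in at least 2 libraries and were among the 15789 genes tested.

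The members together were higher in CharmeKO than in WT CFs. Their summed level was 23088, 25662 and 23409 CPM in WT replicates 1, 2 and 3, and 26567, 28959 and 29484 CPM in CharmeKO replicates 1, 2 and 3. Every CharmeKO library lay above every WT library, with 24053 ± 1403 CPM in WT and 28337 ± 1555 CPM in CharmeKO (SD, n = 3), a log2 ratio of 0.24. Without any scaling, the members took 2.33, 2.41 and 2.27% of the counts in WT and 2.83, 3.01 and 2.89% in CharmeKO. The large subunit genes summed to 13702 ± 810 CPM in WT and 15944 ± 1028 CPM in CharmeKO, and the small subunit genes to 10351 ± 592 and 12392 ± 558 CPM (SD, n = 3), again without overlap. In such bulk samples, fewer cells of a type and less RNA per cell cannot be told apart.

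**Figure D1:**
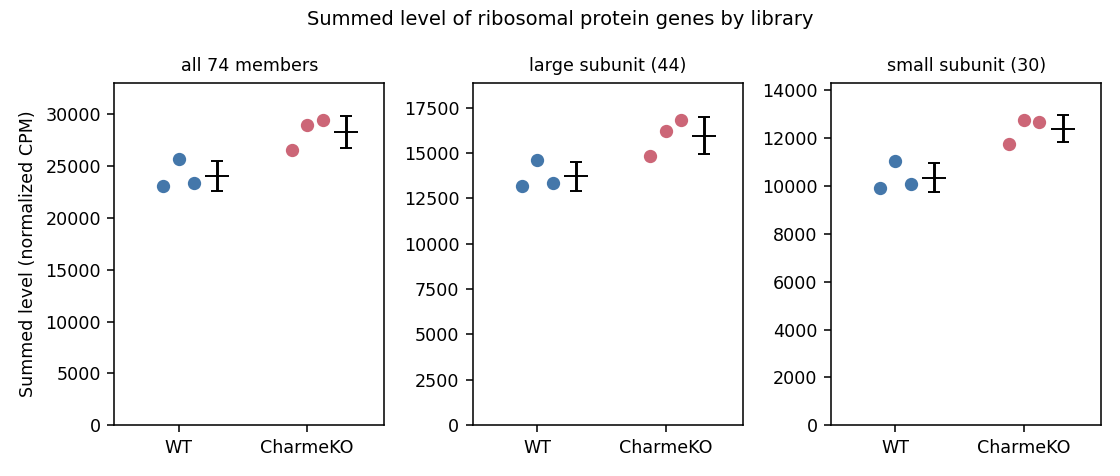
Summed level of all 74 members, of the 44 large subunit genes and of the 30 small subunit genes in each library, in normalized CPM on axes that start at 0. Points are libraries, and the bars beside them give the mean and SD of 3 libraries. The 3 CharmeKO libraries lie above the 3 WT libraries in each panel, with 26567 CPM as the lowest CharmeKO and 25662 CPM as the highest WT value for all members.

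The size of the difference was small for single genes, and none of the 74 members passed an adjusted p of 0.05 in edgeR's quasi-likelihood test, where 0.83% of all tested genes did (0.418% higher and 0.412% lower). The lowest adjusted p among the members was 0.0873, for Rpl26. At an unadjusted p under 0.05, 31 members (41.9%) were higher in CharmeKO, against 5.9% of all tested genes, and 0 were lower, against 6.87%, or 12.8% in either direction. The 3 CharmeKO libraries all lay above the 3 WT libraries in 40 members (54.1%), against 9.57% of all tested genes. They all lay below in 0 members, against 8.59%, or 18.2% of all tested genes in either direction. The log2 fold change was above 0 in 72 of the 74 members (97.3%) and in 51.2% of all tested genes. Its median was 0.22 over the members, a fold of 1.16, and 0.0096 over all tested genes. Rpl24 and Rplp0 were the 2 members with a value below 0.

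DESeq2, applied to the same genes, called 11 members higher (14.9%) and 0 lower, against 0.975% and 1.52% of all tested genes, or 2.5% in either direction. They included Rpl21, Rpl26, Rpl23a, Rpl30, Rps24, Rpl22, Rpl36a, Rps3, Rps27a and Rpl31, whose DESeq2 adjusted p-values ran from 0.00137 for Rpl21 to 0.0436 for Rpl31. The number of calls by edgeR changed without WT replicate 2, the WT library with the highest summed level. Then 4 members passed (Rpl26, Rpl21, Rpl22 and Rps27), all higher. The share of all tested genes that passed in that fit was not computed.

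Most members have short transcripts, and over all tested genes the fold change differed along transcript length. When the tested genes were split into 5 bins of equal size, the bin with the shortest transcripts held 56 members. There the median log2 fold change was 0.22 for the members and 0.080 for the other genes. In bins 2 and 3, counted from the shortest, the members' median was 0.22 and 0.21 (11 and 5 members). That of the other genes was 0.022 and 0.0075 there. In the bin with the longest transcripts it was -0.041 for the other genes. The median also differed along GC content, from 0.11 in the bin of lowest GC to -0.13 in the bin of highest GC for all genes, and the members' median lay above that of the other genes in every bin of both properties, of which the 2 bins of longest transcripts held 1 member each. After the trend of every library with length and GC content was taken out, the median of the members was 0.089, with 55 values above 0 and 19 below. At an unadjusted p under 0.05, 12 members were then higher, against 5.26% of all tested genes, and 0 lower. With the length trend alone removed the median was 0.14, and with the GC trend alone 0.24. The cause of the trend was not tested.

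**Figure D2:**
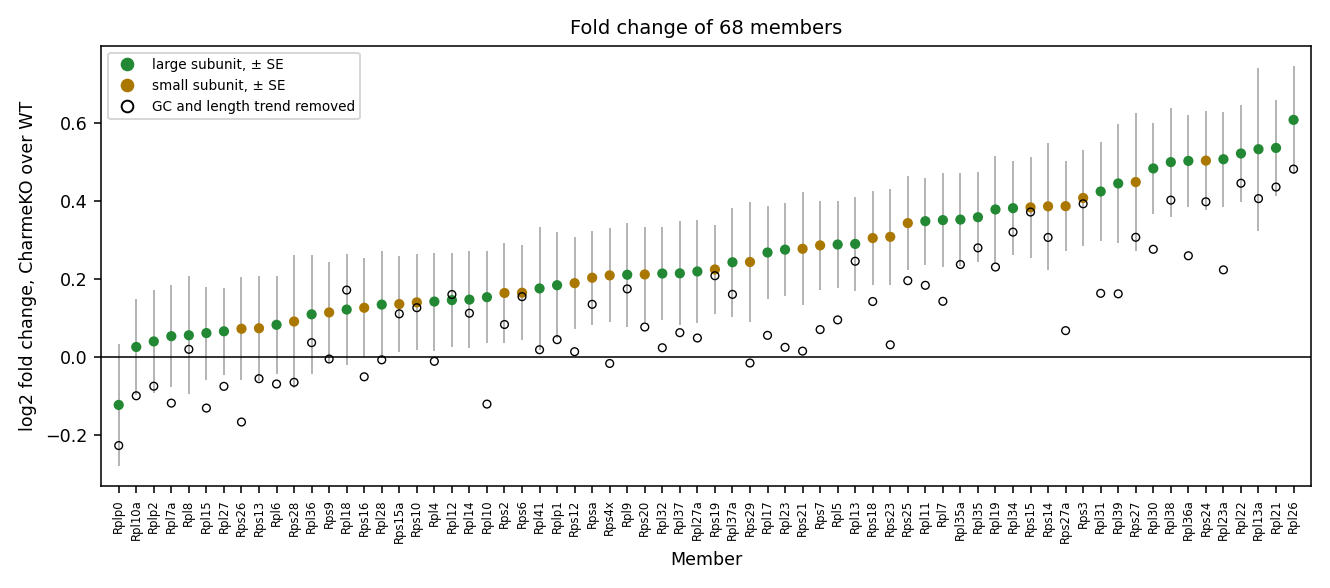
Log2 fold change of CharmeKO over WT for 68 members, ordered by value. Filled points with bars are edgeR values ± SE, coloured by subunit, and open circles are the values after the trend of each library with GC content and length was removed. Filled points lie above 0 except for Rplp0, and open circles lie lower for most members. Rpl24, at -0.82 ± 0.78, is left out for its low counts.

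The median member differed between libraries, and in some libraries the members were split. Relative to each member's own mean, the median member deviated on the log2 scale by -0.21, -0.020 and -0.14 in WT replicates 1, 2 and 3, and by 0.032, 0.14 and 0.18 in CharmeKO replicates 1, 2 and 3. WT replicate 2 thus lay closest to the CharmeKO libraries, and 32 members were above their own mean there, against 4 and 7 in the other WT libraries. In CharmeKO replicate 3, 72 members were above their own mean, and in CharmeKO replicate 1, 47 were above and 27 below. The highest library was CharmeKO replicate 2 for 33 members and CharmeKO replicate 3 for 35. Of the 37 members with the higher fold changes, 29 were highest in CharmeKO replicate 2 and 7 in replicate 3, and of the other 37, 4 and 28 were. Among libraries rich in Xist, the median log2 ratio of CharmeKO to WT was 0.30 (1 WT and 2 CharmeKO libraries, 66 members above 0). Among the others it was 0.26 (2 WT and 1 CharmeKO, 72 members above 0).

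**Figure D3:**
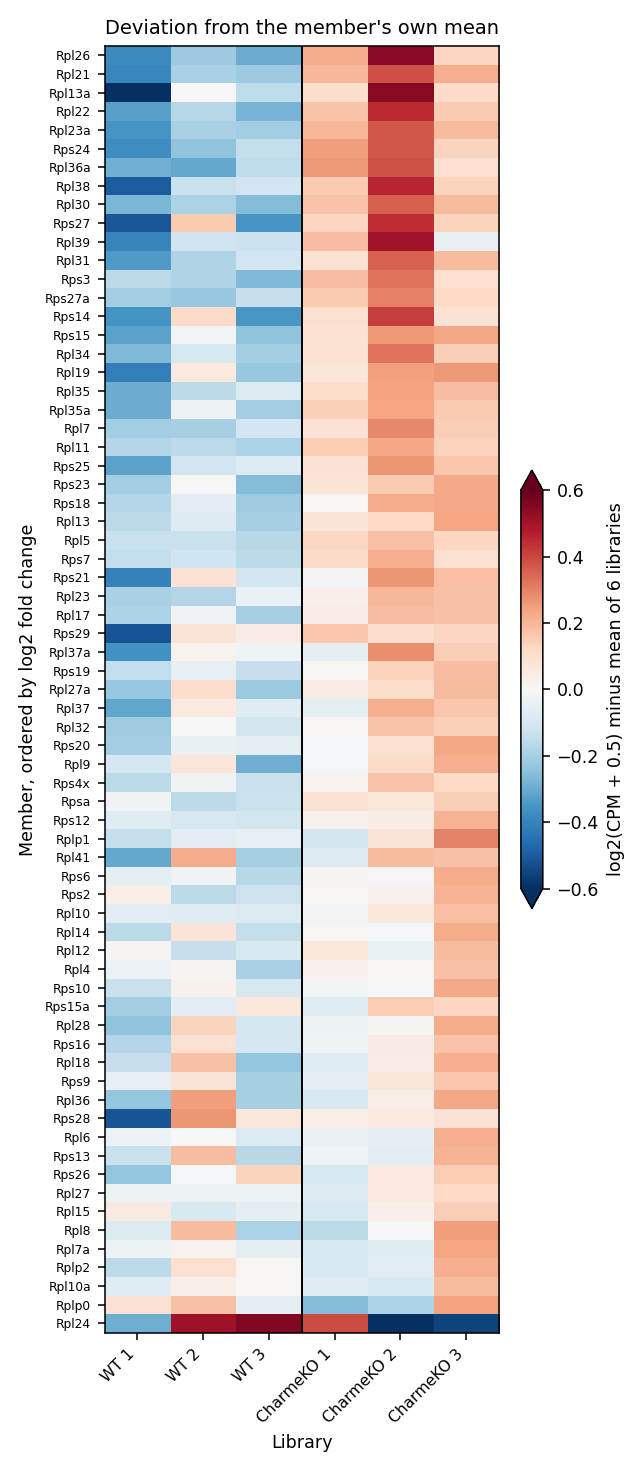
Level of each of 69 members in each library as log2(CPM + 0.5) minus the member's mean over the 6 libraries, in rows ordered by log2 fold change. Red is above and blue below the mean, the scale ends at 0.6 in either direction, and the line separates WT from CharmeKO. WT replicates 1 and 3 are mostly blue and CharmeKO replicate 3 is mostly red, where 70 of all 74 members were below their mean in WT replicate 1.

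The variation over the 6 libraries was set beside that of other genes within the members' range of CPM. Over the 73 members of at least 10 CPM the median coefficient of variation was 12.4%. It was 12.2% over the 8341 other genes between 11.5 and 1046 CPM. Rpl13a alone set the lower bound, and the next member was Rpl38, at 107 CPM. The other genes were therefore not matched to the members in level. Subtracting the median member of each library lowered the SD of the log2 deviations from 0.19 to 0.12. Such a step tends to lower the SD of the values it was taken from. It was not applied to the other genes, so the drop is a description only. Rpl27, a large subunit protein, was the steadiest member, with 156, 156 and 156 CPM in WT and 151, 166 and 173 CPM in CharmeKO, a coefficient of variation of 5.15%. Rpl15, a core protein of the large subunit, and Rpl10, which joins the large subunit late in its maturation, followed with 6.67% and 7.41%. The most variable members of at least 10 CPM were Rpl13a (26.9%), Rpl26 (25.8%) and Rps27 (23.6%).

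In the large subunit, Rpl5 and Rpl11 bind the 5S ribosomal RNA and, outside the ribosome, the p53 regulator Mdm2. Rpl5 was at 359, 360 and 351 CPM in WT and 430, 446 and 430 CPM in CharmeKO. The WT libraries differed little and the CharmeKO libraries were all higher, with a log2 fold change of 0.29 ± 0.11 (SE, n = 3 per group, adjusted p = 0.316). Rpl11 was at 247, 250 and 244 CPM in WT and 310, 327 and 306 CPM in CharmeKO, again without overlap and with a log2 fold change of 0.35 ± 0.11 (adjusted p = 0.235). With the GC and length trend removed the log2 fold changes were 0.095 for Rpl5 and 0.18 for Rpl11.

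The 9 proteins around the exit of the peptide tunnel included the members with some of the larger differences. All 9 had a log2 fold change above 0, with a median of 0.42, 8 lay higher without overlap between the groups (9.57% of all tested genes did), 0 passed in edgeR and 4 were called higher by DESeq2 (0.975% of all tested genes were). Once the GC and length trend was removed the median was 0.22, and 8 values were above 0. Rpl26, which sits beside the exit, was at 295, 330 and 312 CPM in WT and 448, 560 and 420 CPM in CharmeKO. Its lowest CharmeKO value was well above its highest WT value, and its log2 fold change of 0.61 ± 0.14 (adjusted p = 0.0873) was the highest of all members, a fold of 1.52. Rpl23a, a docking point of the signal recognition particle at the exit, was at 315, 353 and 348 CPM in WT and 463, 522 and 459 CPM in CharmeKO, with a log2 fold change of 0.51 ± 0.12 (adjusted p = 0.105). Rpl22, whose gene has the paralog Rpl22l1, was at 156, 173 and 160.5 CPM in WT and 220, 266 and 217 CPM in CharmeKO, with 0.52 ± 0.12 (adjusted p = 0.104). For Rpl23a and Rpl22 too the groups did not overlap, and CharmeKO replicate 2 was the highest library. Rpl4, which lines the tunnel, was the 1 protein of this place whose groups overlapped, with 0.14 ± 0.13, and -0.011 once the trends with GC and length were taken out. After that removal Rpl23a was at 0.22.

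The P stalk, which recruits elongation factors to the large subunit, did not share this pattern in its values. The median over its 4 genes was 0.093 on the log2 scale, and the groups overlapped in all of them. Rplp0, the base of the stalk, was at 1102, 1173 and 999 CPM in WT and 865, 912 and 1227 CPM in CharmeKO. Here 2 CharmeKO libraries lay below and 1 above all WT libraries, and the log2 fold change was -0.12 ± 0.16 (adjusted p = 0.801). Rplp2, 1 of the acidic stalk proteins, was at 204, 244 and 229 CPM in WT and 214, 217 and 265 CPM in CharmeKO, with 0.040 ± 0.13 (adjusted p = 0.928). Rplp1, its partner, was at 578, 607 and 615 CPM in WT and 590.1, 672 and 783 CPM in CharmeKO, with 0.18 ± 0.14 (adjusted p = 0.621). The groups overlapped for both. Removal of the GC and length trend gave -0.23 for Rplp0, -0.075 for Rplp2 and 0.044 for Rplp1. The difference between these places was not tested.

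Rpl21, a large subunit protein, was at 300.3, 344 and 339 CPM in WT and 452, 515 and 459 CPM in CharmeKO. Its groups lay well apart, with a log2 fold change of 0.54 ± 0.12 (adjusted p = 0.0909). Rpl38, known for its part in the translation of Hox mRNAs, was at 73.64, 94.999 and 96.39 CPM in WT and 116, 143 and 115 CPM in CharmeKO, with 0.50 ± 0.14 (adjusted p = 0.169). WT replicate 1 was its lowest library, and the groups did not overlap. Rpl10 was at 444, 443 and 439 CPM in WT and 460.2, 487 and 527 CPM in CharmeKO, with 0.15 ± 0.12 (adjusted p = 0.640). This difference was small but free of overlap, and its sign turned once the GC and length trend was removed (-0.12).

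The lowest log2 fold changes of the large subunit, besides Rpl24, Rplp0 and Rplp2, belonged to Rpl10a and Rpl7a, an RNA-binding protein of the subunit's core. Rpl10a was at 218, 235 and 230.4 CPM in WT and 218, 215 and 262 CPM in CharmeKO, with 0.025 ± 0.12 (adjusted p = 0.957). Rpl7a was at 429, 446 and 421 CPM in WT and 411, 418 and 516 CPM in CharmeKO, with 0.053 ± 0.13 (adjusted p = 0.902). In both genes CharmeKO replicate 3 alone lay above the WT range, and without that library their log2 fold changes were -0.072 and -0.062. After removal of the GC and length trend they were -0.10 and -0.12.

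In the small subunit, 30 of 30 genes had a log2 fold change above 0, with a median of 0.22. Of these, 18 lay higher without overlap between the groups (9.57% of all tested genes did). With the GC and length trend removed, 22 were above 0. The 7 genes of the mRNA channel and the decoding site had a median of 0.31, or 0.083 with that trend removed. Among them, 3 lay higher without overlap (9.57% of all tested genes did) and 0 passed in edgeR. DESeq2 called 1, Rps3, higher (0.975% of all tested genes were). Rps14, a protein of the platform, was at 629, 873 and 632 CPM in WT and 861, 1074 and 855 CPM in CharmeKO. WT replicate 2 fell among the CharmeKO libraries, and the log2 fold change was 0.39 ± 0.16 (adjusted p = 0.354). Rps27, a zinc finger protein, behaved alike in its values, at 208, 331 and 232 CPM in WT and 324, 403 and 325 CPM in CharmeKO, with 0.45 ± 0.18 (adjusted p = 0.317).

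Rps6, the substrate of S6 kinase, was at 336, 344 and 311 CPM in WT and 353, 350.5 and 407 CPM in CharmeKO, with a log2 fold change of 0.16 ± 0.12 (adjusted p = 0.624). The gap between the groups was narrow. Rps27a, which is made as a fusion with ubiquitin, was at 235, 232 and 247 CPM in WT and 303, 335 and 295 CPM in CharmeKO, with 0.39 ± 0.12 (adjusted p = 0.196). Here the groups were clearly separated, and once the length and GC trends were taken out the log2 fold change was 0.067. Rpsa, also known as a laminin receptor, was at 795, 723 and 736 CPM in WT and 858, 845 and 892 CPM in CharmeKO, with 0.20 ± 0.12 (adjusted p = 0.517). Rps4x was at 564, 621 and 574.5 CPM in WT and 640.3, 709 and 685 CPM in CharmeKO, with 0.21 ± 0.12 (adjusted p = 0.502). Neither Rpsa nor Rps4x overlapped between the groups. With the GC and length trend removed the value of Rpsa was 0.13 and that of Rps4x turned to -0.017.

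Of the members called by DESeq2 alone, 5 more are described, and all had 3 CharmeKO libraries above the 3 WT libraries. Rps24, a small subunit protein, was at 404, 443 and 475 CPM in WT and 623, 677 and 574 CPM in CharmeKO, with a log2 fold change of 0.50 ± 0.13 (edgeR adjusted p = 0.126). Rps3, which lines the mRNA entry, was at 545, 536 and 506 CPM in WT and 692, 762 and 652 CPM in CharmeKO, with 0.41 ± 0.12 (adjusted p = 0.199). Its transcript shares few windows with other genes (97.0% unique). In the large subunit, Rpl30 was at 199.8, 212 and 202 CPM in WT and 273, 310 and 276 CPM in CharmeKO, with 0.48 ± 0.12 (adjusted p = 0.104). Rpl36a, an X-linked gene, was at 113, 111 and 124 CPM in WT and 165, 180 and 148 CPM in CharmeKO, with 0.50 ± 0.12 (adjusted p = 0.102). For Rpl36a the gap between the groups was wide although the Xist-poor CharmeKO replicate 3 was its lowest CharmeKO library. Rpl31, at the tunnel exit, was at 264, 295 and 309 CPM in WT and 356, 427 and 382 CPM in CharmeKO, with 0.42 ± 0.13 (adjusted p = 0.195). CharmeKO replicate 2 was the highest library for all 5 of these genes. Without the trends with GC and length the values were 0.28 for Rpl30, 0.26 for Rpl36a and 0.16 for Rpl31.

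Rps19, the gene most often mutated in Diamond-Blackfan anemia, a congenital failure of red cell production, was at 195, 208 and 196 CPM in WT and 217, 237 and 245 CPM in CharmeKO. The groups did not overlap, with a log2 fold change of 0.22 ± 0.11 (adjusted p = 0.445). Over the 15 members linked to that anemia, 15 values were above 0, with a median of 0.29. Of these genes 9 lay higher without overlap (9.57% of all tested genes did), 0 passed in edgeR, and 3, Rpl26 and Rps24 among them, were called higher by DESeq2 (0.975% of all). With the GC and length trend removed the median was 0.13 and 10 values were above 0.

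The members were expressed at unequal levels per length. CPM per kb of the main coding transcript had a median of 441 over the members, and the quartiles were 319 and 534. Rps14 was highest, at 1375 CPM per kb, followed by Rplp1 at 1284 and Rpl41, the shortest ribosomal protein, at 939. Across the 6 libraries Rps14 and Rplp1 ranged from 1054 to 1799.7 and from 1158 to 1569 CPM per kb, so their order could not be told apart, and Rpl41 overlapped with its neighbours as well. Rps20, a protein of the small subunit head with a transcript model of 3706 bases, was at 79.7 CPM per kb. Its level was 255, 285 and 282 CPM in WT and 292, 315 and 345 CPM in CharmeKO, in the middle of the range without the division by length, with a log2 fold change of 0.21 ± 0.12 (adjusted p = 0.502) and without overlap, and 0.077 once the trends with GC and length were taken out.

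Rpl13a and Rpl24 were far below the other members. Rpl13a, which also takes part in silencing inflammatory mRNAs, had 303, 295 and 93 counts in WT and 346, 405 and 369 in CharmeKO. This was 7.124, 11.22 and 10.005 CPM in WT and 12.1, 16.6 and 12.1 CPM in CharmeKO, or 11.0 CPM per kb over all libraries. The CharmeKO libraries were higher than every WT library, with a log2 fold change of 0.53 ± 0.21 (adjusted p = 0.317). Rpl24, a bridge between the subunits, had 16, 27 and 10 counts in WT and 26, 5 and 7 in CharmeKO, or 0.941 CPM per kb. Its groups overlapped, with -0.82 ± 0.78 (adjusted p = 0.723). In the reference annotation another gene model overlaps each of them on the same strand, Gm45713 and Gm28037. Both of those rows held 0 counts. Reads that fall on more than 1 gene are dropped by the counting method, so the levels of Rpl13a and Rpl24 are uncertain. Gene models of that annotation also overlap Rpl13, Rpl19 and Rps10, which were at 682, 155 and 261 CPM on average. Of these models, only Gm11629, over Rpl19, was found by name in the count table.

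**Figure D4:**
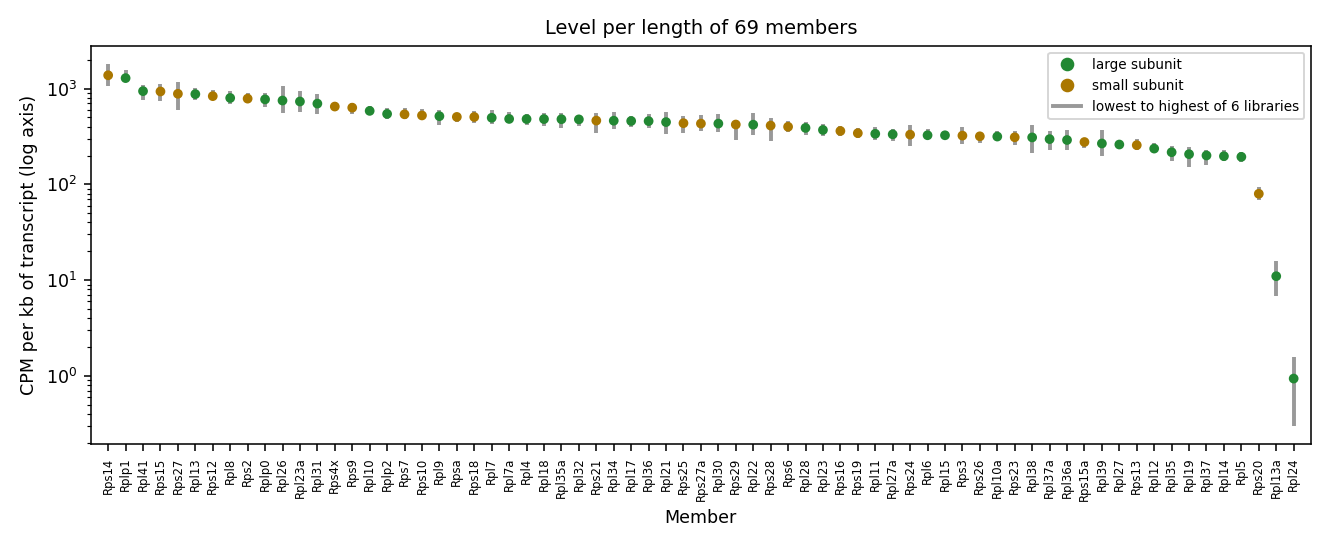
Level of each of 69 members per length, as normalized CPM per kb of transcript on a log axis. Points are means of the 6 libraries, coloured by subunit, and lines run from the lowest to the highest library. Most members lie within a narrow band around 441 CPM per kb, whereas Rps20, Rpl13a and Rpl24 lie below it at 79.7, 11.0 and 0.941 CPM per kb.

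Ribosomal protein genes have many processed copies in the genome, which can share reads with them. A median of 41.3% of the 50-base windows of a member's transcript occurred in no other annotated gene, with 1.35% in Rps27 and 97.0% in Rps3, and 18 members had under 20%. The fold change did not follow this share (a Spearman correlation of -0.0024 over the 73 members of at least 10 CPM, a description over genes measured in the same libraries). The same coefficient was -0.28 with GC content, -0.18 with transcript length and -0.0082 with the level per length. When the 20 members of few unique windows or with an overlapping gene were left out, the median log2 fold change was 0.22. Of the remaining 54, 28 did not overlap between the groups, where 18.2% of all tested genes did not in either direction.

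The table held 282 rows named as processed copies of the members, of which 69 were tested and 0 passed in edgeR or DESeq2. At an unadjusted p under 0.05, 1 was higher and 1 lower (5.9% and 6.87% of all tested genes). They summed to 148 ± 25.7 CPM in WT and 168 ± 22.9 CPM in CharmeKO (SD, n = 3), far below their parents. The most abundant was Rpl38-ps2, at 15.96, 18.49 and 14.42 CPM in WT and 19.3, 24.0 and 18.1 CPM in CharmeKO, with a log2 fold change of 0.32 ± 0.16 (adjusted p = 0.426). The copies of Rpl38 amounted to 17.3% of the level of Rpl38, the largest share of any member. Rpl17-ps10 had 0.23 ± 0.19 (adjusted p = 0.664) and Rps16-ps2 had -0.068 ± 0.22 (adjusted p = 0.926). The groups overlapped for these 2 copies.

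The members lie on 19 chromosomes. The 4 X-linked members, Rpl10, Rpl36a, Rpl39 and Rps4x, had a median of 0.33 on the log2 scale, in libraries that differed in Xist. All 4 lay higher without overlap, where 9.57% of all tested genes did. The 14 members on chromosome 7, which holds more members than any other, had a median of 0.13, with 5 higher without overlap, against the same 9.57%. These differences were not tested. The 28 members with a small nucleolar RNA gene inside them had a median of 0.21, and the 46 without one of 0.25.

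Ribosomal proteins outside the rule were read beside the members. Rpl29, a peripheral protein of the large subunit, was at 234, 244 and 248 CPM in WT and 40.4, 38.8 and 44.6 CPM in CharmeKO, and fell by 2.55 on the log2 scale (SE 0.12, adjusted p = 4.22e-07). Rpl3, a protein near the peptidyl transferase center, was at 496, 510.2 and 428 CPM in WT and 334, 373 and 393 CPM in CharmeKO (adjusted p = 0.254), so both had their groups apart in the direction opposite to the members. Rps3a1 had a log2 fold change of 0.37 ± 0.12 (adjusted p = 0.238), and Fau and Rack1 had 0.11 ± 0.15 and 0.095 ± 0.13. Of the 7 paralogs tested 0 passed in edgeR. Rpl3l, the striated muscle form of Rpl3, was at 2.87, 1.48 and 1.40 CPM in WT and 6.22, 4.91 and 4.41 CPM in CharmeKO, and it passed in DESeq2 (log2 fold change 1.38 ± 0.33, edgeR adjusted p = 0.108, DESeq2 adjusted p = 0.0115). Rpl22l1 was at 37.41, 38.43 and 42.06 CPM in WT and 49.9, 61.0 and 48.6 CPM in CharmeKO, without overlap between the groups.

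The mitochondrial ribosomal proteins, encoded in the nucleus and forming a separate ribosome, also had a median above 0. Of 77 tested, 66 had a log2 fold change above 0, with a median of 0.18, and 25 lay higher without overlap and 0 lower, where 9.57% of all tested genes lay higher. With the GC and length trend removed the median was 0.10, beside 0.089 for the members. None passed in edgeR, and 9 were higher and 0 lower at an unadjusted p under 0.05, where 5.9% of all tested genes were higher. DESeq2 called 1 higher, Mrpl20, against 0.975% of all tested genes (24.4, 18.5 and 22.5 CPM in WT and 32.3, 32.3 and 31.3 CPM in CharmeKO). Their summed level was 1061 ± 27.2 CPM in WT and 1184 ± 21.1 CPM in CharmeKO (SD, n = 3).

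Other genes of translation differed less in their medians. Of 54 translation factors, 36 had a log2 fold change above 0, with a median of 0.075. None passed in edgeR or in DESeq2, and 5 were higher and 0 lower at an unadjusted p under 0.05. Of all tested genes, 5.9% were higher and 6.87% lower at that p, shares that apply to the lists below too. Eef1a1 and Eef2, the elongation factors that deliver tRNA and move the ribosome, had 0.10 ± 0.14 (adjusted p = 0.821) and -0.11 ± 0.18 (adjusted p = 0.846). Of 67 genes of ribosome biogenesis 0 passed in edgeR or DESeq2, with a median of 0.016 and 1 higher and 3 lower at an unadjusted p under 0.05. Ncl and Ubtf, of the nucleolus, had 0.047 ± 0.13 and -0.012 ± 0.11. The 14 snoRNA host genes had a median of 0.025 and 0 calls by either tool, with 1 higher and 1 lower at an unadjusted p under 0.05. Gas5, a non-coding host gene whose RNA carries a 5′ TOP element, had 0.18 ± 0.16. The 32 tested regulators of mTOR and of TOP mRNAs had a median of -0.051 and 0 calls by either tool, with 0 higher and 1 lower at an unadjusted p under 0.05. The most abundant genes of that list were Akt1 and Cdkn1a, the latter a cell cycle inhibitor, with -0.054 ± 0.13 and 0.15 ± 0.22.

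**Figure D5:**
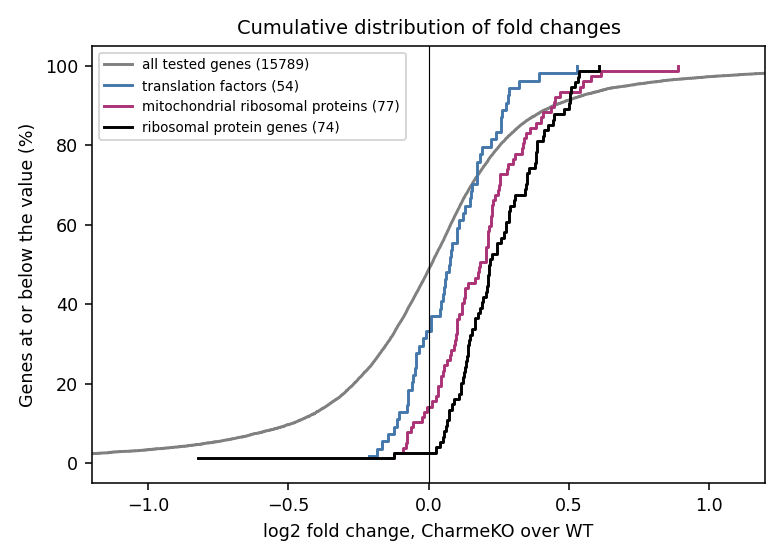
Cumulative share of genes, in percent, at or below each log2 fold change of CharmeKO over WT, for the 74 members, 77 mitochondrial ribosomal proteins, 54 translation factors and all 15789 tested genes. The curve of the members lies to the right of that of all genes, with medians of 0.22 and 0.0096, and the mitochondrial ribosomal proteins lie between, at 0.18.

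Some markers of the fibroblasts and of other cells moved with the genotype in the same libraries. Of 8 cardiomyocyte markers 3 rose (Mb, Myh6 and Tnni3) and DESeq2 called 6 higher, where 0.418% and 0.975% of all tested genes were called higher. All 8 had values above 0, with a median of 0.77, and 7 were higher at an unadjusted p under 0.05 and 7 without overlap (5.9% and 9.57% of all tested genes). At that p, 6.87% of all tested genes were lower. The cardiomyocyte markers summed to 343 to 440.2 CPM in WT and to 518 to 807 CPM in CharmeKO. Of 8 endothelial markers 0 passed in edgeR or DESeq2, with 3 higher and 0 lower at an unadjusted p under 0.05 and 7 values above 0. Their median was 0.29, 4 lay higher without overlap, and sums were 7503 to 9229 CPM in WT and 8386 to 10944 CPM in CharmeKO. With the GC and length trend removed, medians were 0.74 for cardiomyocyte, 0.21 for endothelial, -0.067 for fibroblast and -0.39 for erythroid markers. They were 0.10 for the large and 0.083 for the small subunit members. Of 5 erythroid markers 5 had values below 0, 0 passed in edgeR or DESeq2 and 1 was lower at an unadjusted p under 0.05, with sums of 26774 to 39207 CPM in WT and 24411 to 31742 CPM in CharmeKO. Of 10 genes of the dissociation response, Hspa1a and Hspa1b rose (log2 fold changes of 1.30 ± 0.21 and 1.59 ± 0.27), while the sum ranged from 27597 to 39975 CPM in WT and from 32509 to 35830 CPM in CharmeKO. Of 10 fibroblast markers 4 had values above 0 and 6 below, 0 passed in edgeR, and 1 was higher and 3 lower at an unadjusted p under 0.05. DESeq2 called 2 of them lower (Col1a1 and Mfap5, with log2 fold changes of -0.77 ± 0.23 and -0.63 ± 0.17), and their sum ranged from 31958 to 38239 CPM in WT and from 30142 to 35293 CPM in CharmeKO. Of 8 mural cell markers 0 passed in edgeR, with 0 higher and 1 lower at an unadjusted p under 0.05, and DESeq2 called 1 lower, Cspg4 (-0.57 ± 0.14). The leukocyte markers summed to 28.6 to 53.5 CPM in WT and 38.6 to 50.9 CPM in CharmeKO, with Cd3e at 0 in 3 libraries. Leaving out the hemoglobin genes gave a median of 0.22 over the members. The part of the other markers in the members' levels was not tested.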

How the data were processed

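Native CFs of WT and CharmeKO mice were profiled by directional poly(A) RNA-seq, with 3 libraries per group. Reads of high base quality were aligned by the authors to GRCm39 with STAR (the submitters' processing notes also list GRCh38). Counts per gene, from an Ensembl annotation to which Charme was added, were deposited raw for 49548 genes. Members and gene lists were chosen with earlier results of these data known. Genes that reached 10 counts in 2 or more libraries were normalized by TMM and tested with the quasi-likelihood test of edgeR 4.0.16 in R 4.3.3, with Benjamini-Hochberg adjustment and a threshold of 0.05. Standard errors were derived from the F statistics. DESeq2 1.42.0, other normalizations and filters, the replicate number as a block, GC and length trends, and each library left out were alternatives. After the data were seen, the GC and length trends taken singly, a term for Xist, the removal of hemoglobin genes and of members with few unique windows were added. Lengths, GC content and shared windows came from GENCODE M21 on GRCm38, another build than the counts, so no gene coordinates are given from it. The scripts were tested on simulated data. The biological coefficient of variation was 20.2%.

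The members described singly were those with the 5 highest and 5 lowest fold changes, the 3 highest and 3 lowest levels per length and coefficients of variation, and 11 genes with roles of their own, 26 in all. Rpl4, Rps15 and the members called by DESeq2 alone were named after their values were seen. In other lists the genes past the threshold or the most abundant were named, and Dcn, Pdgfra, Col1a1, Mfap5, Cspg4, Rpl22l1, Rpl3l, Mrpl20, Gas5 and Cd3e were picked after their values were seen. Some genes are not reported singly here and are left out of the plots that name members. Figures were drawn with matplotlib 3.10.9.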

Additional observations from a re-analysis of the deposited data

How the results depend on the processing

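The direction of the members' median did not turn under any of the 23 alternatives run for it, which gave log2 values from 0.19 to 0.29 except with GC and length trends removed (0.089, and 0.093 with the replicate block as well) or the length trend alone removed (0.14). The number of members called was 0 with edgeR, 11 with DESeq2, 9 without a filter on low counts and 1, Rps15, with the GC trend alone removed. It was 1, Rpl29 itself, when ribosomal proteins outside the rule were counted as members too. The replicate block gave 3 calls (Rpl26, Rpl21 and Rpl22). The numbers were not shown to pair the libraries, since deviations of same-numbered libraries correlated at 0.18, 0.034 and 0.14, although each WT library correlated best with the CharmeKO library of its own number. Leaving out 1 library gave between 0 and 4 calls (4 without WT replicate 2). The number of members without overlap was 58 with library totals alone and 40 to 57 with 1 library left out. Fewer libraries leave less room for overlap, so a rise from 40 was largely fixed in advance. The shares of all tested genes called or without overlap were not computed under the alternatives, except the share called with DESeq2.

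Of the other lists, the paralogs had 1 call with DESeq2, 2 without a filter and 1 with the replicate block. The mitochondrial ribosomal proteins had 1 with DESeq2 and 1 without a filter. The translation factors had 1 without a filter and 0 to 1 with a library left out (1 without WT replicate 2), and the mTOR and TOP regulators 1, lower, without a filter. The median level per length was 666 CPM per kb of coding sequence and 271 CPM per kb of the longest transcript.

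For the 26 members described singly, 491 of 519 values kept their direction. With GC and length trends removed, the log2 fold changes turned to -0.10 for Rpl10a, -0.075 for Rplp2, -0.12 for Rpl7a, -0.076 for Rpl27, -0.13 for Rpl15, -0.12 for Rpl10 and -0.017 for Rps4x. With the replicate block as well they were -0.10, -0.078, -0.13, -0.076, -0.14, -0.13 and -0.016, in the same order. With the length trend alone removed, they turned to -0.055 for Rpl10a, -0.11 for Rplp2, -0.090 for Rpl7a, -0.025 for Rplp1, -0.0059 for Rpl41, -0.12 for Rpl27 and -0.0030 for Rpl10, and with the GC trend alone to -0.034 for Rpl15. Leaving out 1 library gave -0.072 to 0.078 for Rpl10a, -0.068 to 0.098 for Rplp2, -0.062 to 0.12 for Rpl7a and -0.0022 to 0.12 for Rpl15. These turned below 0 without CharmeKO replicate 3, and without WT replicate 1 Rpl10a (-0.0030) and Rplp2 (-0.024) did. The cause of these changes was not tested. Rpl24 had 5 to 27 counts in a library, which limits its precision.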
